A study of Homo sapiens with 60 samples.

Results

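The genes described here are the 9 of the corticosteroid receptor, 11-beta-hydroxysteroid dehydrogenase (11-beta-HSD) and serum- and glucocorticoid-regulated kinase (SGK) system that were listed by name: NR3C1, NR3C2, HSD11B1, HSD11B2, SGK1, SGK2, SGK3, FKBP5 and TSC22D3. They were found by Ensembl identifier among the 60675 genes of the deposited table, and 8 of the 9 had enough counts to be tested. The libraries come from HepG2, an established line from a human liver carcinoma, cultured for 24 h with an extract or with DMSO as vehicle. There were 3 vehicle libraries and 57 libraries of 8 extracts, each given at 20 µg/mL (Low), 100 µg/mL (Medium) and 500 µg/mL (High). Ethanol extracts of Glycyrrhizae Radix (licorice root, called Glycyrrhiza here), Panax Ginseng (Ginseng), Poria Cocos (Poria) and Atractylodis Rhizoma (Atractylodis) had 3 libraries per dose, as had the water extract of the formula Sibjeondaebo-tang (SDT). The water extract of the formula Palmul-tang (PMT) had 2 libraries per dose, and the ethanol extracts of Angelicae Gigantis Radix (Angelica) and Paeoniae Radix (Paeonia) had 1, so those 2 extracts have values but no test. The labels give the vehicle as 0.1% DMSO and the series text gives 2%; the DMSO content of the extract cultures is not given. All cultures used medium with fetal bovine serum, no group received an added corticosteroid, and the wortmannin control named in the series text was not analysed here.

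Cortisol binds the glucocorticoid receptor and aldosterone the mineralocorticoid receptor, and both receptors then leave their chaperone complexes and act on genes in the nucleus. The enzyme 11-beta-HSD type 2 inactivates cortisol to cortisone and so keeps cortisol from the mineralocorticoid receptor in aldosterone target cells, while type 1 regenerates cortisol in the liver and in fat. Glycyrrhetinic acid, which derives from the licorice triterpene glycyrrhizin, inhibits the type 2 enzyme, and excess licorice intake is known for sodium retention and low potassium. SGK1, FKBP5 and TSC22D3 are classical glucocorticoid-induced genes; SGK1 is also induced by aldosterone in the kidney. Enzyme activity and steroid levels were not measured in these libraries, which report RNA only.

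Promoter sequence is shown for the members with the largest fall and the largest rise in Glycyrrhiza High. Windows of the 250 bases before a RefSeq start (GRCh38.p14) were found for 6 of the 9 genes, 21 windows in all; none was given for HSD11B2, SGK2 or SGK3. They were searched on both strands for the glucocorticoid half-site TGTTCT, the full response element (this half-site and its inverted repeat, 3 bases apart), the aryl hydrocarbon receptor core GCGTG, the cAMP response element TGACGTCA, the FOXO site GTAAACA, the AP-1 site TGANTCA and the ATF4 site TGATGNAA. A full element contains the half-site. The SGK1 sequence lies at chr6:134174897-134175116, minus strand, from 250 to 31 bases before the start at 134174866, and its 250-base window held no match. The TSC22D3 sequence lies at chrX:107717136-107717312, minus strand, from 250 to 74 bases before the start at 107717062, and its capitals mark a FOXO site read on the opposite strand. Bases nearer each start lie in exons of other transcripts and are left out. Both genes have other starts, whose windows are not shown, and the matches differ between starts. The aryl hydrocarbon receptor core was in the SGK1 window before 134177861 and in the TSC22D3 windows before 107775787 and 107775988.
SGK1: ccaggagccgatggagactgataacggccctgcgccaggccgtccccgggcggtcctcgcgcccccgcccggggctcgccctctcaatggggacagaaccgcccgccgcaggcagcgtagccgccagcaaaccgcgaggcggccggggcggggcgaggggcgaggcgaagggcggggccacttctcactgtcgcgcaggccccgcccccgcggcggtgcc
TSC22D3: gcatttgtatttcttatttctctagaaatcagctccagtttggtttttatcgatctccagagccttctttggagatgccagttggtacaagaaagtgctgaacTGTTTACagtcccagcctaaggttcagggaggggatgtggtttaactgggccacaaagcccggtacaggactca

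Over the 21 windows, the response element, its half-site, the cAMP response element and the ATF4 site had 0 matches. The aryl hydrocarbon receptor core was in 10 of 21 windows, against 32.2% of 35116 windows of the same length over all genes of the table. The FOXO site was in 2 of 21, against 2.98%, and the other window with it belongs to NR3C1. The AP-1 site was in 1, an NR3C1 window, against 6.57%. The half-site was in 12.4% of all windows, the cAMP response element in 1.65%, the ATF4 site in 3.14% and the full response element in 0.00285%. A match is a string of letters and not a measured binding site, and glucocorticoid receptor sites often lie outside such windows.

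Vehicle libraries held 27390854 to 29913389 counts and extract libraries 19057230 to 33233215. The 10 hepatocyte markers, ALB and HNF4A among them, were above 0 in all 60 libraries. The 5 markers of kidney collecting duct and distal tubule, the classical aldosterone target, together reached at most 0.377 CPM. CPM is the count scaled to the size of the library. AQP2 was at 0 in all 60 libraries, KCNJ1 in 58, SCNN1G in 56, CALB1 in 35 and SLC12A3 in 9. Markers of other cell types were present in part. Of 5 leukocyte and macrophage markers, PTPRC was at 0 in 60 libraries and CD3E in 56, but LYZ (816 to 2090 CPM), CD68 (50.5 to 161) and CD14 (1.62 to 4.19) were above 0 in all, and the 5 summed to 971 to 2180 CPM. Of 4 endothelial markers, KDR was at 0 in 58 libraries and PECAM1, CDH5 and VWF were above 0 in all, with a sum of 1.66 to 3.23 CPM. The 5 fibroblast and stellate markers summed to 2.44 to 17.8 CPM, nearly all of it PDGFRB. The 5 adrenal cortex markers summed to 69.5 to 91.5 CPM, most of it NR5A1, with CYP11B1 at 0 in 60 libraries. STAR (1.66 to 5.94 CPM), CYP11A1 (0.41 to 2.53) and CYP17A1 (0.0638 to 0.654) were above 0 in all. The part of these markers in the results was not tested. Mitochondrial transcripts took 13.4 to 15.2% of counts in vehicle and 14.7 to 24.8% in extract libraries. The share was 15.1 to 17.0% in Glycyrrhiza Low and 17.8 to 18.4% in Glycyrrhiza High. It was 15.8 to 17.5% in Poria Low and 19.7 to 22.3% in Poria High, so in both extracts Low and High did not overlap. Glycyrrhiza Medium (15.4 to 17.6%) overlapped Low, and Poria Medium (17.2 to 21.6%) overlapped both Low and High. With library sizes computed without these genes, SGK1 fell by 3.20 log2 and TSC22D3 rose by 2.39 log2 from Low to High in Glycyrrhiza. No call of a member from Low to High in Glycyrrhiza or Poria changed. Both fits used TMM factors, a scaling that already adjusts for the share of counts taken by a few abundant genes, so this refit could change little. The part of the share in the results was not tested. The sample descriptions carry a set code that vehicle shares with no extract, so for every comparison with vehicle the set and the treatment cannot be told apart. Glycyrrhiza and Ginseng share a code, and comparisons between doses of 1 extract use no vehicle library. In bulk RNA, fewer cells expressing a gene and less RNA per cell cannot be told apart.

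In vehicle cells the levels per kilobase of exon were 11.3 CPM for FKBP5, 7.45 for HSD11B2, 6.91 for SGK2, 3.49 for NR3C1, 3.38 for SGK3 and 3.02 for SGK1. TSC22D3, at 0.138 CPM per kilobase, and NR3C2, at 0.0747, were far below. The length used was that of all annotated exons of a gene merged, 9992 bases for SGK1 and 2674 for HSD11B2. It can exceed the length of the transcripts expressed, so the order of the genes depends on it. Before this division SGK1 had a vehicle mean of 30.14 CPM and HSD11B2 one of 19.91. HSD11B1 had 1 count in the 60 libraries together (exact 95% Poisson interval 0.0253 to 5.57), in 1 PMT High library, against 27145 counts for HSD11B2. So the type 1 enzyme, abundant in normal liver, was at the limit of detection in every group: a count of 0 allows up to 3 counts, or 0.162 CPM in the smallest library. Between its lowest and highest group means, SGK1 varied 11.5-fold, TSC22D3 6.61-fold, HSD11B2 2.17-fold and FKBP5 1.36-fold.

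In the Glycyrrhiza extract the system changed in several directions at once at the High dose. Relative to Low, SGK1 fell to 0.109 and HSD11B2 to 0.522 of the level, whereas TSC22D3 rose 5.25-fold, NR3C1 1.45-fold and SGK3 by less. Of the 8 tested members 4 rose and 3 fell, where 56.3% of all 16284 tested genes were called (edgeR quasi-likelihood test, Benjamini-Hochberg adjusted p under 0.05). With a background of this size, the count itself says little about these genes; the sizes of their changes differ widely. By absolute log2 change in this comparison, SGK1 was number 106 and TSC22D3 number 232 of the 16284 genes, HSD11B2 number 2119, NR3C1 number 4931 and FKBP5 number 12630. From Low to Medium 2 of the 8 were called, SGK1 and FKBP5, against 3.56% of all genes.

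**Figure D1:**
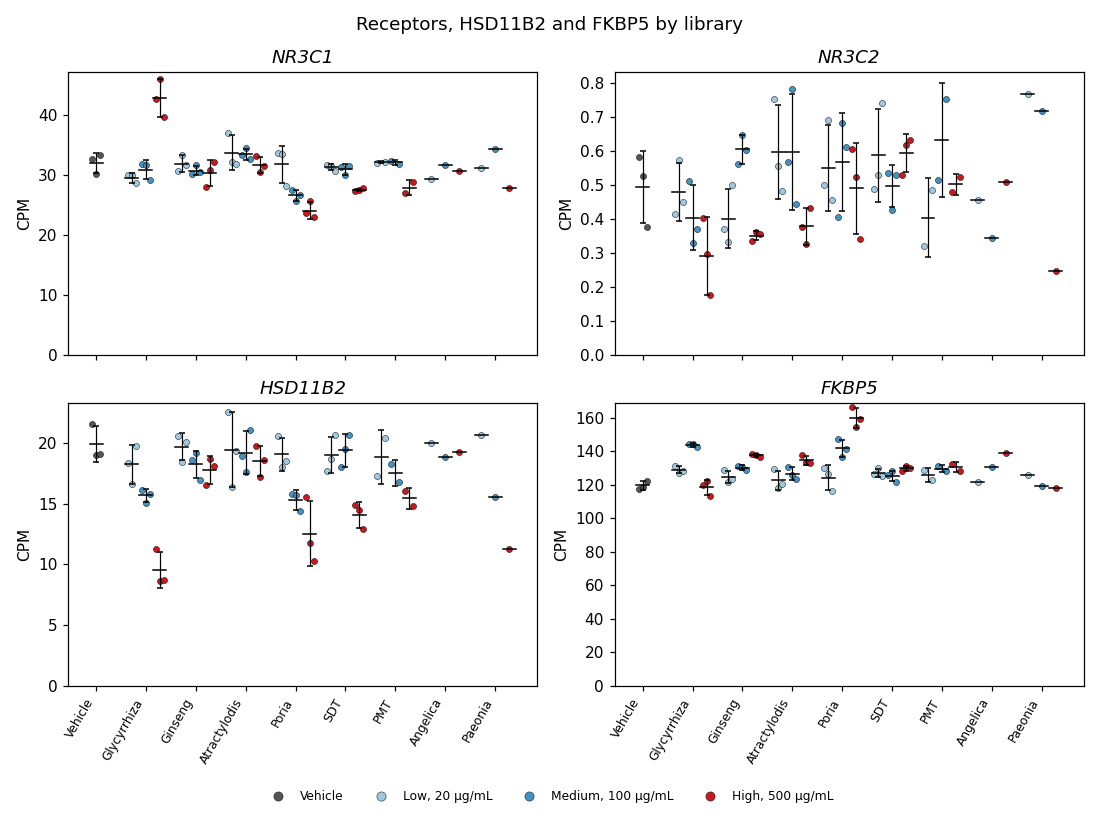
Levels of NR3C1, NR3C2, HSD11B2 and FKBP5 in CPM (y axes, from 0) in vehicle and in 8 extracts at Low, Medium and High. Points are libraries, horizontal bars group means, error bars the SD where there are 2 or more libraries; Glycyrrhiza High is highest for NR3C1, and Poria High for FKBP5.

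NR3C1 (ENSG00000113580, chromosome 5, 143277931 to 143435512, minus strand, GRCh38) encodes the glucocorticoid receptor. Its levels in vehicle were 32.66, 30.15 and 33.34 CPM. In Glycyrrhiza they were 30.01, 29.98 and 28.60 at Low, 31.85, 31.72 and 29.11 at Medium, and 42.64, 46.01 and 39.64 at High. The 3 High libraries lay above all 57 others, the nearest of which, an Atractylodis Low library, had 37.03. The receptor RNA rose by 0.53 log2 from Low to High (SE 0.06, adjusted p = 7.76e-11) and was 0.42 log2 above vehicle at High (SE 0.06, adjusted p = 1.84e-08).

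In Poria the receptor went the other way. Its levels were 33.58, 33.47 and 28.16 CPM at Low, 27.50, 25.60 and 26.60 at Medium, and 23.59, 25.62 and 22.95 at High, so all High libraries lay below all Low libraries. The log2 change from Low to High was -0.40 (SE 0.06, adjusted p = 1.2e-06). SDT High (27.47 ± 0.246 CPM, SD, n = 3) and PMT High (27.88 ± 1.19, SD, n = 2) were below vehicle, by -0.21 log2 (adjusted p = 0.00493) and -0.19 log2 (adjusted p = 0.0279), but their changes from Low to High did not pass (-0.18 and -0.20 log2, adjusted p = 0.172 and 0.338). The PMT call was lost without either of 2 vehicle libraries or 1 of the PMT libraries (largest adjusted p = 0.267). The change in Glycyrrhiza differed from that in Poria by 0.94 log2 (SE 0.09, adjusted p = 1.49e-12), and from those in Ginseng, Atractylodis, SDT and PMT by 0.60 to 0.74 log2 (largest adjusted p = 5.6e-08).

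NR3C2 (ENSG00000151623, chromosome 4, 148078762 to 148444698, minus strand) encodes the mineralocorticoid receptor and had 4 to 21 counts per library. Its vehicle levels were 0.5802, 0.5252 and 0.3746 CPM. In Glycyrrhiza they were 0.4128, 0.5739 and 0.4491 at Low and 0.4026, 0.2951 and 0.1746 at High. The High libraries overlapped vehicle and lay below all Low libraries, from 4 to 12 counts against 13 to 17. The change from Low to High was -0.67 log2 (95% interval -1.37 to 0.02, edgeR, adjusted p = 0.0934). The receptor was called in 0 of 33 comparisons with edgeR. DESeq2 called it in 0, but DESeq2 gave no adjusted p for some tests of members, and such tests count as not called. With edgeR, 1 comparison had an unadjusted p under 0.05. That was Glycyrrhiza High against vehicle (log2 change -0.71, 95% interval -1.40 to -0.03, adjusted p = 0.0643), which passed without 1 of the vehicle libraries or 1 of the Glycyrrhiza High libraries. The 4 to 21 counts per library limit the precision of all NR3C2 values.

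HSD11B2 (ENSG00000176387, chromosome 16, 67430652 to 67437553, plus strand), the gene of the cortisol-inactivating type 2 enzyme, fell with dose. Its vehicle levels were 21.60, 19.03 and 19.10 CPM. In Glycyrrhiza the Low libraries had 18.38, 16.61 and 19.79, the Medium libraries 16.15, 15.10 and 15.83, and the High libraries 11.24, 8.676 and 8.688. No High library reached any Medium library, and no Medium library reached any Low library. The log2 change from Low to High was -0.94 (SE 0.11, adjusted p = 3.81e-10); from Low to Medium it was -0.22 (SE 0.10, adjusted p = 0.306).

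A lower level at High was not limited to the Glycyrrhiza extract. The library titles do not list the herbs in the formulas SDT and PMT, so these cannot be taken as free of licorice. In Poria the levels were 20.59, 18.06 and 18.54 CPM at Low, 15.81, 15.75 and 14.39 at Medium and 15.54, 11.74 and 10.32 at High. The change of -0.61 log2 from Low to High (SE 0.11, adjusted p = 1.47e-05) could not be separated from that in Glycyrrhiza: the difference was -0.32 log2 (95% interval -0.64 to -0.01, adjusted p = 0.0875), and it passed without the filter on low counts (adjusted p = 0.0420), without the Poria High library at 10.32 (adjusted p = 0.0161) and without the Glycyrrhiza High library at 11.24 (adjusted p = 0.0189). Without the Poria High library at 15.54 it was -0.14 log2 (adjusted p = 0.506). In SDT, HSD11B2 fell by 0.43 log2 from Low to High (SE 0.11, adjusted p = 0.0322), a call lost on leaving out any of 5 of its 6 libraries. Ginseng and Atractylodis changed by -0.14 and -0.06 log2 (adjusted p = 0.521 and 0.807), and Glycyrrhiza differed from them by -0.80 and -0.87 log2 (adjusted p = 1.73e-05 and 3.36e-06).

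In single Paeonia libraries HSD11B2 was at 20.67, 15.52 and 11.25 CPM at Low, Medium and High. These 3 values run in the same order as in Glycyrrhiza, without a replicate. Over all 8 extracts the High mean was below the Low mean, and in 4 of the 6 extracts with replicates (Glycyrrhiza, Poria, SDT and PMT) the High and Low libraries did not overlap. In PMT, with 2 libraries per dose, the change of -0.29 log2 from Low to High did not pass (edgeR, adjusted p = 0.486). The share of all genes whose High and Low libraries did not overlap was not computed, here or for other members.

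**Figure D2:**
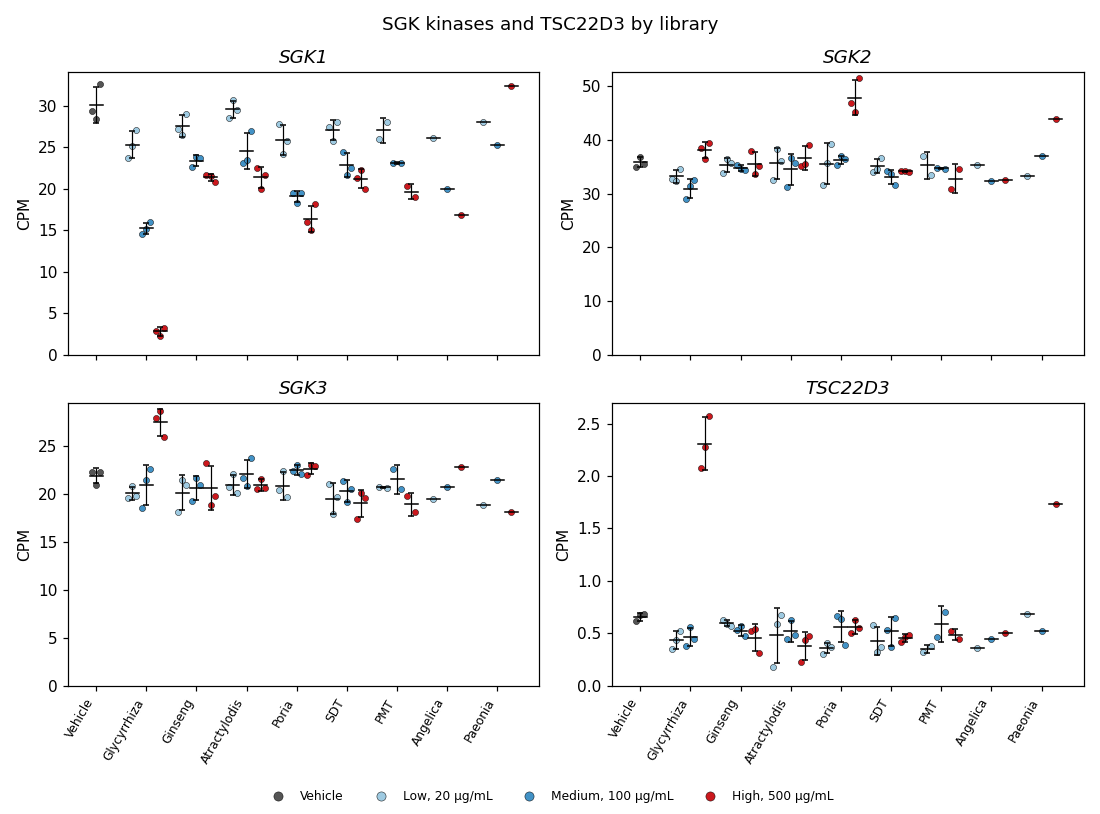
Levels of SGK1, SGK2, SGK3 and TSC22D3 in CPM (y axes, from 0) by library, with group means and SD as bars. SGK1 in Glycyrrhiza High lies between 2.302 and 3.274 CPM, below every other library, and TSC22D3 is above 1 CPM only in Glycyrrhiza High and in the Paeonia High library.

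SGK1 (ENSG00000118515, chromosome 6, 134169246 to 134318112, minus strand) encodes a kinase that raises epithelial sodium channel activity and phosphorylates FOXO factors. In vehicle its levels were 29.42, 28.42 and 32.59 CPM. In Glycyrrhiza they were 23.75, 25.18 and 27.08 at Low, 14.55, 15.17 and 15.95 at Medium and 2.852, 2.302 and 3.274 at High, the last from 75 to 85 counts. Each dose lay wholly below the dose before it, and the High libraries lay below all 57 others.

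SGK1 fell by 0.74 log2 from Low to Medium (SE 0.07, adjusted p = 2.64e-10) and by 3.20 log2 from Low to High (SE 0.09, adjusted p = 1.09e-30). It was below vehicle by 0.24, 0.98 and 3.44 log2 at Low, Medium and High (adjusted p = 0.00407, 8.26e-15 and 3.93e-32), and the Low call was lost without the vehicle library at 32.59 (adjusted p = 0.0513). Against vehicle, the members called in Glycyrrhiza were 2 of 8 at Low, 4 at Medium and 5 at High, with 29.7%, 34.9% and 61.3% of all genes called.

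The kinase also fell in every other extract with replicates, by far less. Poria had 27.82, 24.16 and 25.76 CPM at Low and 15.95, 15.09 and 18.17 at High. Ginseng had 27.20, 26.53 and 29.07 at Low and 21.70, 21.59 and 20.83 at High. In all 6 extracts every High library lay below every Low library of the same extract.

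From Low to High the log2 change of SGK1 was -0.66 in Poria (SE 0.07, adjusted p = 6.93e-10), -0.47 in Atractylodis (adjusted p = 5.49e-06), -0.46 in PMT (adjusted p = 0.00259), -0.36 in Ginseng (adjusted p = 0.000474) and -0.35 in SDT (adjusted p = 0.00321). In PMT, with 2 libraries a dose, the call was lost without 1 of the High or 1 of the Low libraries (adjusted p up to 0.167). SGK1 was the one member called in PMT, where 0.516% of all genes were called. In SDT 2 members were called against 1.04%, in Ginseng 2 against 5.79%, in Atractylodis 2 against 6.41% and in Poria 5 against 38.4%. The fall in Glycyrrhiza was larger than in each of the others, by 2.54 (Poria) to 2.85 log2 (SDT), with a largest adjusted p of 1.47e-21 over the 5 differences.

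The single Angelica libraries had 26.12, 19.96 and 16.87 CPM of SGK1 at Low, Medium and High. Paeonia had 28.11, 25.24 and 32.38 and so was the 1 extract of 8 without a lower High value. Compared with vehicle, SGK1 was lower in 14 of 18 extract and dose groups and higher in 0; the 4 groups in which it did not pass were the Low doses of Ginseng, Atractylodis, SDT and PMT.

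In those 4 Low groups no member was called with edgeR, while 33.4% (Ginseng), 26.9% (Atractylodis), 35.9% (SDT) and 31.1% (PMT) of all genes were. At an unadjusted p under 0.05 there were 0, 0, 4 and 1 members. DESeq2 called 0, 0, 1 and 0 among the tests for which it gave an adjusted p. At Medium the members called were 2 in Ginseng (29.9% of all genes), 1 in Atractylodis (28.3%), 4 in Poria (38.6%), 1 in SDT (36%) and 2 in PMT (29.7%). At High they were 2 in Ginseng (36.3%), 3 in Atractylodis (34%), 5 in Poria (51.1%), 5 in SDT (34.2%) and 4 in PMT (29.2%). Poria Low had 2 (19.2%), SGK1 and TSC22D3; the SGK1 call there (adjusted p = 0.0233) was lost without 1 vehicle library, without 1 Poria Low library and with only the groups compared (largest adjusted p = 0.159).

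At equal dose and within 1 set code, Glycyrrhiza and Ginseng separated with rising dose. At Low no member was called with edgeR (0.0614% of all genes) and 0 had an unadjusted p under 0.05. DESeq2 called 0 among the tests for which it gave an adjusted p. At Medium 2 were called (5.42% of all genes): SGK1 was 0.62 log2 lower in Glycyrrhiza, that is -0.62 log2 (SE 0.07, adjusted p = 2.04e-08), and FKBP5 was 0.15 log2 higher (SE 0.04, adjusted p = 0.0133). At High 6 were called (56.9% of all genes), with SGK1 at -2.96 log2 (SE 0.10, adjusted p = 6.47e-29).

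SGK2 and SGK3 are kinases of the same family. SGK2 (ENSG00000101049, chromosome 20, 43558968 to 43588237, plus strand) stood out in Poria, with 31.70, 35.79 and 39.32 CPM at Low and 46.88, 45.27 and 51.57 at High, the last above all 57 other libraries. It rose there by 0.43 log2 (SE 0.07, adjusted p = 4.68e-07). Vehicle had 35.05, 36.86 and 35.62 CPM. In Glycyrrhiza it had 32.70, 32.37 and 34.65 CPM at Low, 29.04, 31.35 and 32.52 at Medium and 38.48, 36.44 and 39.42 at High. Medium had the lowest mean of the 25 groups and was below vehicle by -0.21 log2 (SE 0.06, adjusted p = 0.0109), a call lost without the Medium library at 29.04 (adjusted p = 0.0902). From Low to High SGK2 rose by 0.19 log2 (SE 0.06, adjusted p = 0.0087), and at High it did not differ from vehicle beyond the test's threshold (0.09 log2, 95% interval -0.04 to 0.22, adjusted p = 0.213). The next library to Poria High was Paeonia High, with 43.88 CPM.

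SGK3 (ENSG00000104205, chromosome 8, 66667596 to 66862022, plus strand) acts downstream of phosphoinositide kinases at endosomes. A readthrough gene, C8orf44-SGK3, shares its exons, so how counts were split between them is uncertain. In Glycyrrhiza it had 19.56, 20.83 and 19.86 CPM at Low and 27.91, 28.71 and 25.93 at High, above all 57 other libraries, with vehicle at 22.36, 21.01 and 22.37. The rise was 0.46 log2 (SE 0.07, adjusted p = 4.74e-07), and it was larger than in each of the 5 other extracts by 0.34 to 0.59 log2 (largest adjusted p = 0.00753). Thus in Glycyrrhiza High the 3 kinases did not move together.

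TSC22D3 (ENSG00000157514, chromosome X, 107713221 to 107777342, minus strand) encodes GILZ, a leucine zipper protein that mediates anti-inflammatory effects of glucocorticoids. It was scarce, with 18, 22 and 20 counts or 0.6143, 0.6797 and 0.6810 CPM in vehicle. In Glycyrrhiza it had 0.3493, 0.4388 and 0.5182 CPM at Low, 0.3830, 0.5605 and 0.4510 at Medium, and 2.080, 2.272 and 2.576 at High, from 62, 77 and 59 counts. The High libraries lay above all 57 others, and Low and Medium overlapped.

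TSC22D3 rose by 2.39 log2 from Low to High (SE 0.24, adjusted p = 5.95e-12) and was 1.80 log2 above vehicle (SE 0.22, adjusted p = 1.67e-09). Low to Medium gave 0.10 log2 (SE 0.31, adjusted p = 0.947). The rise differed from the change in each of the 5 other extracts by 1.76 to 2.80 log2 (largest adjusted p = 0.004); the difference from PMT was lost without 1 PMT Low library (adjusted p = 0.0609). The Paeonia High library, with 49 counts and 1.734 CPM, was the nearest to Glycyrrhiza High, while the Paeonia Low and Medium libraries had 0.6805 and 0.5273 CPM. TSC22D3 was lower than vehicle in Atractylodis High (-0.80 log2, adjusted p = 0.0340) and Poria Low (-0.85 log2, adjusted p = 0.0441), calls from 6 to 12 counts per library. Both were lost without the filter, the first also on leaving out any of 3 libraries and the second on leaving out any of 6 (largest adjusted p = 0.222 and 0.149).

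FKBP5 (ENSG00000096060, chromosome 6, 35573585 to 35728583, minus strand) encodes a cochaperone that lowers the glucocorticoid receptor's affinity for hormone and is itself a receptor target. Its vehicle levels were 117.7, 118.7 and 122.4 CPM. In Glycyrrhiza they were 131.3, 127.2 and 128.3 at Low, 144.2, 144.3 and 142.6 at Medium and 119.9, 122.0 and 113.1 at High, so the level rose and then returned to the vehicle range or below it. The rise from Low to Medium was 0.16 log2 (SE 0.04, adjusted p = 0.00901) and the change from Low to High -0.13 log2 (SE 0.04, adjusted p = 0.00448). Without the filter on low counts neither passed (adjusted p = 0.205 and 0.0909), and the first was also lost without either of 2 Low libraries.

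In Poria, Ginseng and Atractylodis FKBP5 rose from Low to High. Poria had 130.1, 126.5 and 116.0 CPM at Low, 147.0, 136.7 and 141.3 at Medium and 166.1, 154.6 and 159.0 at High, the last above all 57 other libraries, a rise of 0.36 log2 (SE 0.04, adjusted p = 1.36e-10). Ginseng rose by 0.15 log2 (adjusted p = 0.0121) and Atractylodis by 0.13 log2 (adjusted p = 0.0250), and both calls were lost without the filter (adjusted p = 0.198 and 0.265) and on leaving out any of 4 libraries. The change in Glycyrrhiza was below that in each of the 5 other extracts, by -0.49 (Poria) to -0.16 log2 (SDT); the differences from SDT and PMT were lost without the filter (adjusted p = 0.178 and 0.192) and on leaving out the Glycyrrhiza High library at 113.1.

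**Figure D3:**
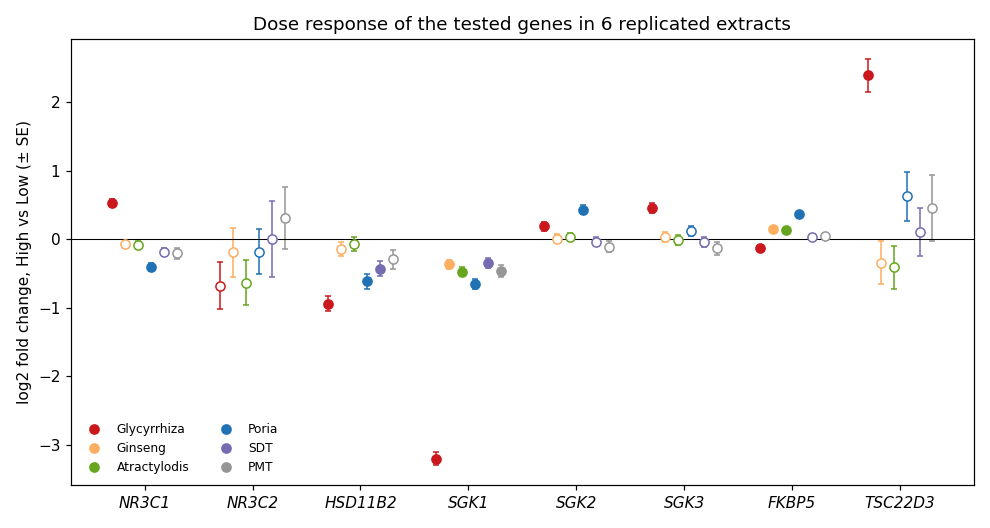
Log2 fold change from Low to High (y axis) of the 8 tested genes in 6 extracts, with SE as error bars; filled points had an adjusted p under 0.05 and open points did not. Glycyrrhiza stands at -3.20 for SGK1 and at 2.39 for TSC22D3, and SGK1 is below 0 in all 6 extracts.

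The change from Low to High itself was compared between Glycyrrhiza and each other extract, and the members that differed were 6 of 8 for Ginseng, where 45.4% of all genes differed. They were 6 for Atractylodis (45.9% of all genes), 6 for Poria (45.6%), 7 for SDT (44.2%) and 7 for PMT (39.2%). NR3C1, SGK1, SGK3, FKBP5 and TSC22D3 were among them in each of the 5 comparisons, HSD11B2 in all but that with Poria and SGK2 in those with Poria, SDT and PMT.

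The glucocorticoid-induced members thus did not share a direction in Glycyrrhiza High, where SGK1 fell, TSC22D3 rose and FKBP5 fell slightly. Over the 25 group means, the Pearson correlation of SGK1 with FKBP5 was -0.117, and it was -0.868 over the 24 groups without Glycyrrhiza High. The groups share vehicle, sets and dose steps, so these values describe the groups and are not a test. In the 24 groups, those with less SGK1 RNA tended to have more FKBP5 RNA. Paeonia High had the most SGK1 and the least FKBP5 (32.38 and 117.8 CPM), Poria High had the most FKBP5 (16.40 and 159.9 CPM) and Glycyrrhiza Medium the least SGK1 (15.22 and 143.7 CPM); Glycyrrhiza High (2.809 and 118.3 CPM) lay off this line.

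**Figure D4:**
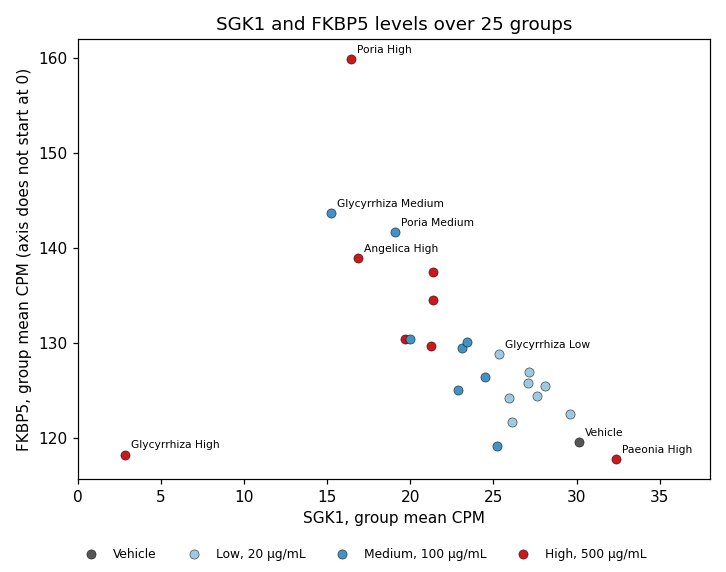
Group mean of SGK1 (x axis, CPM) against that of FKBP5 (y axis, CPM, not starting at 0) for 25 groups, coloured by dose. Groups run from upper left to lower right except Glycyrrhiza High, at 2.809 and 118.3 CPM.

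The genes whose group means most resembled those of SGK1 over 25 groups were CEACAM16-AS1, CX3CL1 and SERPINA7, with Pearson r of 0.968, 0.966 and 0.955; over the 24 groups without Glycyrrhiza High r was 0.825, 0.849 and 0.718. For HSD11B2 they were PAQR8 (0.943), CASP1 (0.930) and TJP3 (0.925), and for TSC22D3 KIF3C (0.925), RNF41 (0.924) and USP11 (0.919). For FKBP5 they were UTP14A (0.938), IDH3A (0.931) and CPED1 (0.927). For NR3C1 they were SKIL (0.885), SYNE3 (0.882) and LINC02323 (0.880), and for NR3C2 LINC00607 (0.813), DOK6 (0.770) and LINC01963 (0.743). For SGK2 they were TACC1 (0.904), GOT1 (0.885) and WSB2 (0.876), and for SGK3 NFX1 (0.874), SLC25A16 (0.868) and NQO2 (0.838). Without Glycyrrhiza High, r was 0.750, 0.744 and 0.710 for the SGK3 genes, 0.793, 0.840 and 0.784 for those of NR3C1, 0.845, 0.846 and 0.845 for those of TSC22D3, and 0.784, 0.719 and 0.728 for those of NR3C2. For the genes listed with HSD11B2, SGK2 and FKBP5 it was 0.872 to 0.945.

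Other genes of the pathway were described from 7 lists, all in Glycyrrhiza High against Low, where the median of all tested genes was 0.006 log2. There 28.4% of all tested genes were called higher and 27.8% lower, which is the background for the counts of all 7 lists. Of 26 tested glucocorticoid receptor targets other than the members, 15 rose and 5 fell, with a median of 0.56 log2. The largest rises were those of G6PC1, the last enzyme of glucose release (20.4 to 139 CPM, 2.77 log2), IGFBP1, a secreted binder of insulin-like growth factors (265 to 1560 CPM, 2.55 log2), and LCN2, an iron-carrier protein (0.244 to 0.712 CPM, 1.53 log2). LCN2 was scarce, with a Low mean below that of NR3C2 (0.4786 CPM), which limits the precision of its change. The largest falls were those of BIRC3, an inhibitor of apoptosis (9.21 to 2.11 CPM, -2.09 log2), the metallothionein MT1X (33.7 to 18.1 CPM, -0.90 log2) and NFKBIA, the inhibitor of NF-kB (94.6 to 55.6 CPM, -0.77 log2). Many of these genes are also known to respond to other signals. From Low to High the same list had 0 higher and 4 lower in Ginseng (2.92% and 2.87% of all genes), and 8 higher and 5 lower in Poria (20% and 18.4%).

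Of the 18 listed chaperones and cochaperones of corticosteroid receptors, 13 fell and 0 rose, with a median of -0.26 log2. The largest falls were those of HSP90AA1 (1670 to 987 CPM, -0.76 log2), HSPA8 (1570 to 965 CPM, -0.71 log2) and STIP1 (227 to 150 CPM, -0.60 log2). From Low to High in Ginseng, 7 of the 18 rose and 0 fell (2.92% and 2.87% of all genes). In Poria 6 rose and 2 fell (20% and 18.4%). In Atractylodis 8 rose and 0 fell, with 6.41% of all genes called in either direction. In SDT and PMT 0 rose and 0 fell (1.04% and 0.516% called). Of 12 coregulators, 4 rose and 2 fell in Glycyrrhiza, against 28.4% and 27.8% of all genes. The coactivator of gluconeogenesis PPARGC1A rose by 1.07 log2 and the coactivator NCOA1 by 0.37. The coactivator NCOA3 and the remodelling ATPase SMARCA4 changed by -0.54 and -0.23 log2.

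Of 21 tested genes of corticosteroid metabolism, 10 rose and 4 fell. AKR1C2 (162 to 657 CPM, 2.02 log2) and AKR1C1 (277 to 1040 CPM, 1.91 log2), near-identical aldo-keto reductases whose reads may be split uncertainly, rose most, followed by CYP3A5 (0.99 log2), a steroid hydroxylase. AKR1D1, the steroid 5-beta-reductase that clears cortisol and cortisone in the liver, fell from 21.0 to 4.89 CPM (-2.12 log2). UGT2B7, a glucuronosyltransferase, and SERPINA6, the corticosteroid-binding globulin, changed by -0.77 and -0.28 log2.

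Of 23 regulators and substrates of the SGK kinases, 8 rose and 7 fell. This is near the 28.4% and 27.8% of all genes, so the counts say little about these genes. RICTOR, the subunit of the complex that phosphorylates SGK1, rose by 0.54 log2, the kinase subunit PIK3CA by 0.49 and the transcription factor FOXO3, an SGK1 substrate, by 0.43. PIK3R1, NDRG1, whose protein is a standard SGK1 substrate, and PIK3CB changed by -0.65, -0.60 and -0.22 log2. Of 13 tested genes of aldosterone-sensitive sodium and potassium transport, 6 rose and 4 fell. The epithelial sodium channel subunits SCNN1D (1.58 to 3.65 CPM) and SCNN1A (12 to 24.8 CPM) rose by 1.21 and 1.05 log2, and the kinase WNK4 by 0.66, while the deubiquitinase USP2, the sodium pump subunit ATP1B1 and the kinase OXSR1 changed by -1.0, -0.86 and -0.24 log2.

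Hyperosmotic stress is another known inducer of SGK1, and of its 9 listed genes 2 rose and 5 fell. AQP3, a water and glycerol channel, rose from 2.71 to 28.6 CPM (3.39 log2) and the taurine transporter SLC6A6 by 0.54 log2. AQP9, the betaine transporter SLC6A12 and the aldose reductase AKR1B1 changed by -1.88, -1.32 and -0.45 log2. For this list too, the shares over all tested genes were 28.4% higher and 27.8% lower.

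**Figure D5:**
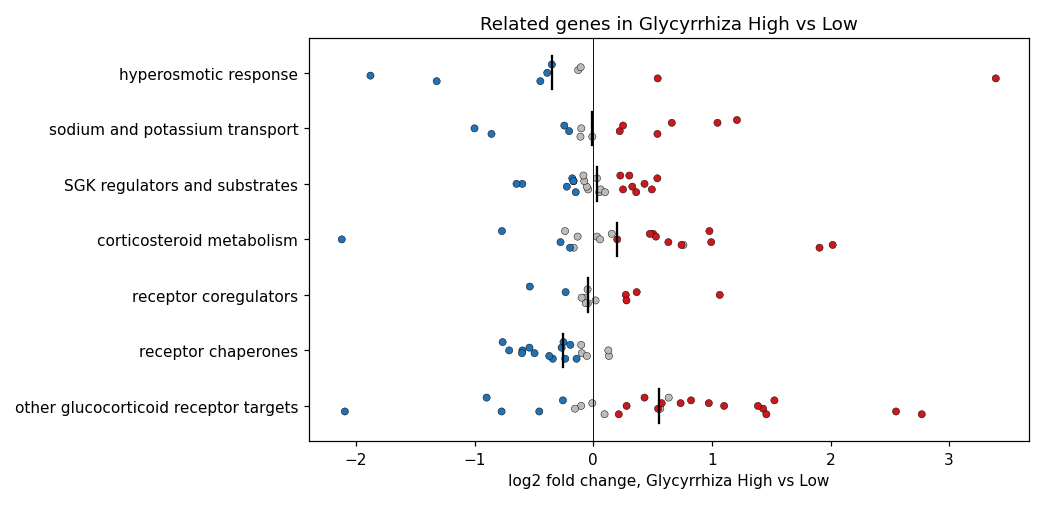
Log2 fold change of Glycyrrhiza High against Low (x axis) for the tested genes of 7 lists (y axis); red points rose, blue points fell and grey points did not pass the test, and black bars are list medians. Chaperones lie mostly below 0, and the other receptor targets have a median of 0.56.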

How the data were processed

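Per the labels' protocols, total RNA was made into directional mRNA libraries. Per the submitters' processing notes, FastQC 0.11.9, Trim Galore 0.6.5, STAR 2.7.3a and RSEM 1.3.3 were used; the annotation release and strand setting are not given in the sources used here. The values the authors deposited are expected counts per gene, not normalised; 23.4% of nonzero values were not whole within 0.005. Of 270 sample columns, 210 were not used. Rounded counts of the 16284 genes passing filterByExpr entered 1 edgeR 4.0.16 quasi-likelihood model (R 4.3.3, TMM factors) of 54 libraries in 19 groups, with Benjamini-Hochberg adjustment over all genes at 0.05. The fitted common dispersion of 0.00317 equals 5.6% variation between replicates. SEs and intervals were taken from each test's p and t distribution, since edgeR's Poisson bound raised p in 31 of 33 NR3C2 tests and 26 TSC22D3 tests. Levels are CPM on TMM sizes; log2 CPM used a prior count of 2. Positions and exon lengths are from GENCODE 29 (57055 identifiers found). Alternatives were RLE, upper quartile scaling, library sizes without mitochondrial genes, no filter, a replicate block, only the groups compared, DESeq2 1.42.0 and leaving out each library. In simulated data of 15946 genes for Glycyrrhiza High against Low, 66, 67 and 67 genes were changed by 0.5, 1 and 2 log2. Of these 68.2%, 80.6% and 95.5% were recovered, with 8 false calls. All other genes were simulated without a change in any group. In the real comparison 56.3% of genes were called, so these rates may not hold there. The members, lists and rule for named genes (all members, the 3 largest called rises and falls of each list in Glycyrrhiza High against Low, and the 3 genes most correlated with each member) were chosen with earlier results of these data known. The values of 1 gene under this rule are not reported here. The labels do not say that replicates are separate cultures, so p-values may measure technical spread.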

Additional observations from a re-analysis of the deposited data

Results flagged for a closer look

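For the members below the change from Low to High in Glycyrrhiza differed from that in another extract by a test of the difference itself (edgeR, adjusted p under 0.05). Differences are in log2, Glycyrrhiza minus the other extract. For SGK1 they were -2.84 (Ginseng), -2.73 (Atractylodis), -2.54 (Poria), -2.85 (SDT) and -2.74 (PMT). For TSC22D3 they were 2.73, 2.80, 1.76, 2.28 and 1.93 in the same order. For NR3C1 they were 0.60, 0.62, 0.94, 0.72 and 0.74, and for SGK3 0.42, 0.46, 0.34, 0.49 and 0.59. For FKBP5 they were -0.28, -0.26, -0.49, -0.16 and -0.18. HSD11B2 differed from Ginseng by -0.80, from Atractylodis by -0.87, from SDT by -0.51 and from PMT by -0.64. SGK2 differed from Poria by -0.24, from SDT by 0.23 and from PMT by 0.30; each was lost on leaving out some single libraries (4 libraries for Poria, 8 for SDT and 2 for PMT; largest adjusted p = 0.161, 0.0923 and 0.165). The 5 differences of a gene share the Glycyrrhiza libraries.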

How the results depend on the processing

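Of 264 tests of members, 103 were called, and none changed sign among called values. Of those called, 77 were called under every setting that gave an adjusted p for the test. DESeq2, among others, gave none for some tests. The count of members called in Glycyrrhiza against vehicle was 11 (10 to 12 on leaving out 1 library) and over dose 9 (8 to 10). In the 5 other extracts it was 31 against vehicle (23 to 33) and 12 over dose (11 to 12). Differences between Glycyrrhiza and another extract numbered 32 (29 to 33), and those between Glycyrrhiza and Ginseng at equal dose 8 (7 to 8). Without the filter on low counts, 12 FKBP5 calls were lost; the cause was not tested. Same-numbered libraries of a set had residual correlations of -0.111 to 0.162 (median 0.0155), with 14 of 123 pairs over 0.1. Differently numbered libraries of a set had 4 of 240 pairs over 0.1 (median -0.00875), so same-numbered libraries were slightly more alike. The main fit had no replicate block because the labels do not say that a number marks a shared culture or day. With the replicate block the counts were 11, 32, 9, 12, 32 and 8, and 1 member test changed (FKBP5, SDT Low against vehicle, which then passed).

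Counts of all called genes moved by over 1.5 times in these comparisons. Fitting only the groups compared moved Poria Low against vehicle from 3129 to 1037, Glycyrrhiza Medium against Low from 579 to 941, Atractylodis High against Low from 1044 to 338, Poria High against Low from 6258 to 3977 and SDT High against Low from 170 to 102. Leaving out 1 library gave as few as 1657 for Poria Low, 2888 (from 4380) for Atractylodis Low and 2735, 2411 and 1907 (from 5069, 4834 and 4763) for PMT Low, Medium and High, all against vehicle. From Low to High it gave as few as 526 (from 943) in Ginseng, 581 in Atractylodis, 88 in SDT and 29 (from 84) in PMT, and from Low to Medium in Glycyrrhiza 336. Glycyrrhiza against Ginseng went from 10 to 4 at Low and from 882 to 546 at Medium. Without the filter, SDT High against Low had 410, PMT 230 and Glycyrrhiza against Ginseng at Low 99. Depth limits NR3C2, TSC22D3 and HSD11B1.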
